A study of Homo sapiens with 6 samples.

Results

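The autophagy and lysosome genes of C4-2B prostate cancer cells are described here, as 70 of the 58024 genes of the deposited table. They were chosen by symbol and not by their values, though with earlier results of these data known. They comprise the core autophagy genes (ATG genes, ULK1, ULK2, BECN1, the ATG8 family and the receptor SQSTM1) and the subunits of the vacuolar ATPase. The cathepsins, LAMP1, LAMP2, LAMP3 and the transcription factor TFEB make up the rest. C4-2B parental cells and C4-2B enzalutamide resistant cells were sequenced by RNA-Seq, in 3 libraries each. C4-2B is a human prostate cancer line of the LNCaP lineage, obtained through its C4-2 subline by passage in mice, and enzalutamide is an antiandrogen drug. The resistant cells were selected with enzalutamide raised from 1 to 20 µM over at least 6 months and then kept in 5 µM, and are a pool of the surviving cells from a single selection as far as the methods state. The parental cells were passaged beside them in dimethyl sulfoxide, which the labels give as 1% and the methods at a lower concentration. RNA was taken after exposure to 10 µM enzalutamide, and the sources do not settle whether the parental cells were exposed as well. No source says that the 3 libraries of a group came from separate cultures, so the p-values measure the spread between these libraries, which may be technical.

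Autophagy encloses cytoplasm in a double membrane, the autophagosome, and delivers it to the lysosome. The ULK complex starts the process, the BECN1 lipid kinase complex marks the membrane, ATG9 and ATG2 proteins supply lipid, and a conjugation system of the ubiquitin kind attaches ATG8 proteins to the membrane, where receptors such as SQSTM1 bring cargo. The lysosome is acidified by the vacuolar ATPase, a rotary proton pump with a membrane sector (V0) and a cytosolic sector (V1), and its cathepsins are the proteases that degrade the content. In prostate cancer cells autophagy has been studied as a response to loss of androgen signaling.

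The values are FPKM, fragments scaled to transcript length and to the size of the library, so levels of different genes are comparable per length. The estimated depth was 14200000 to 20700000 reads per library, at which a single read on a transcript of 2000 bases is worth 0.0268 to 0.0392 FPKM. On log2 FPKM, libraries of the same cells correlated with each other at Pearson r from 0.911 to 0.929 across genes and libraries of different cells at 0.782 to 0.802. As markers of the line, the luminal genes KRT8, KRT18, FOXA1 and HOXB13 were between 96.1 and 249 FPKM in the 6 libraries, the basal genes KRT5 and TP63 and the leukocyte genes PTPRC and CD3E were at or near 0, and the summed basal and leukocyte markers stayed at or below 0.927 and 1.61 FPKM. KLK3, the androgen-dependent gene for prostate-specific antigen, was at 2321 to 2857 FPKM in parental and 41.8 to 46.8 FPKM in resistant libraries. By limma, the 1 basal marker tested was called lower, and of 3 leukocyte markers tested 1 was called higher (33.3% called). Of the 9 luminal markers listed, 5 were called lower and 2 higher by limma (77.8% called, beside 44.4% of all genes tested). Their sum was 4068 to 4767 FPKM in parental and 1234 to 1324 FPKM in resistant libraries. The 4 neuroendocrine markers summed to 0.926 to 2.37 FPKM in parental and 47.0 to 54.2 FPKM in resistant libraries, nearly all of it SYP, with INSM1 near 0. The 4 fibroblast markers summed to 7.79 to 10.1 and 6.77 to 11.4 FPKM, with DCN listed at 0 in the parental and at 3.63 to 4.35 FPKM in the resistant libraries, PDGFRB at 1.38 to 3.55 and 0.0331 to 0.241 FPKM, and COL1A2 near 0 throughout. These markers differ between the same libraries as the genes below, and their part in the results was not tested.

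In C4-2B enzalutamide resistant cells, 6 of 11 tested cathepsins were lower than in their parental counterparts and 2 were higher. Of 8 tested V0 genes 4 were lower and 2 higher. The receptor SQSTM1 fell, and 3 of 7 conjugation genes, ATG10, ATG12 and ATG5, rose. Of these calls, those of ATG5 and of the cathepsin CTSB did not hold in every alternative setting. Single isoforms differed most, with MAP1LC3A and ATP6V1C2 going from near 0 to several FPKM, while the initiation genes and most V1 subunits did not pass the test. ATP6V1C2 reached the mean of 0.1 FPKM needed for testing only through its resistant libraries. The size of both fold changes depended on the constant added before the logarithm. Of the 70 genes, 63 reached a mean of 0.1 FPKM and were tested, while the other 7 were below it. Of these 63, 11 were upregulated and 21 downregulated by limma with Benjamini-Hochberg adjustment over all genes tested, at a threshold of 0.05. The share called was 50.8%, beside 44.4% of the 24468 genes tested in the whole table, of which 22.1% were higher and 22.3% lower. Among the 47 members with a mean of at least 10 FPKM, 8 were higher and 18 lower (55.3% called), beside 58.1% of protein-coding genes of that level, 25.9% higher and 32.2% lower. The share called is therefore near the background, and the count says little about these genes as a group. The groups did not overlap for 36 of the 63 members, 13 higher and 23 lower in resistant cells (57.1%, beside 54.8% of all genes tested). Their median log2 fold change was -0.08, beside -0.05 over all genes tested, and at a change of at least 2-fold 5 members were higher and 10 lower, beside 15.0% and 13.6% of all genes tested. The members together summed to 2845 to 3143 FPKM in parental and 2433 to 2596 FPKM in resistant libraries, which was 0.351% to 0.361% and 0.296% to 0.307% of the library sums. In bulk RNA, fewer cells that express a gene and less RNA per cell cannot be told apart.

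**Figure D1:**
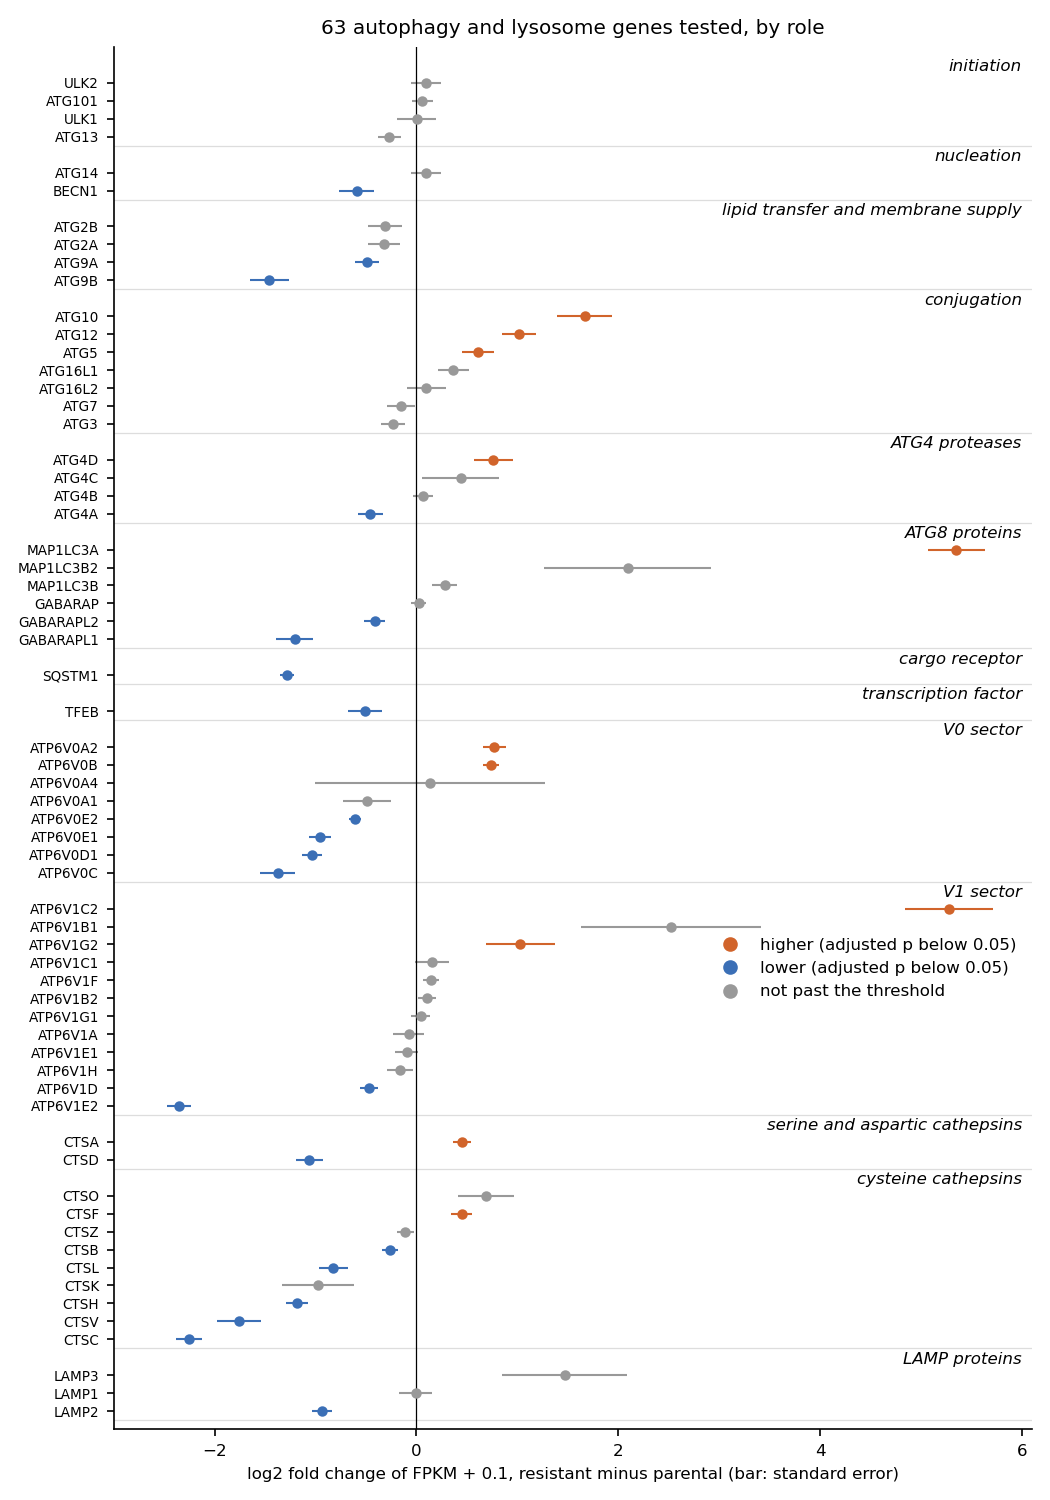
Log2 fold change of FPKM + 0.1, resistant minus parental, for the 63 tested members grouped by role, with the standard error as a line and colors for higher, lower and not past the threshold. The cathepsins lie mostly left of 0, the conjugation genes mostly right, and MAP1LC3A (5.35) and ATP6V1C2 (5.28) stand far to the right of the other members. ATP6V1C2 reached the filter only through its resistant libraries.

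Of the initiation genes, none passed the test by limma. ULK1, the kinase that starts autophagosome formation, was at 22.4, 14.8 and 23.2 FPKM in parental and 17.8, 20.8 and 20.9 FPKM in resistant libraries. Its groups overlapped, and the log2 fold change of 0.00 had a 95% confidence interval from -0.46 to 0.46. The other members of the complex measured here, ULK2, ATG13 and ATG101, had log2 fold changes of 0.10, -0.27 and 0.06. ATG13 was at 55.7 to 64.3 and 43.8 to 56.3 FPKM, and the interval of its log2 fold change reached from -0.55 to 0.02.

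BECN1, the scaffold of the lipid kinase complex that marks the forming membrane, was at 61.3, 45.6 and 56.8 FPKM in parental and 29.3, 42.5 and 37.4 FPKM in resistant libraries. Each resistant library was below each parental library, and the gene fell by 0.59 on the log2 scale (SE 0.17, limma adjusted p = 0.0324). The call was lost without parental library 0 or 2 or resistant library 0 or 2, with adjusted p up to 0.0996, and its opposite-strand neighbor PSME3, whose locus overlaps that of BECN1, was at 100 to 124 and 68.6 to 94.5 FPKM. ATG14, which directs the complex to autophagy, was at 3.61 ± 0.15 and 3.85 ± 0.22 FPKM (SD, n = 3 each) and did not pass. Among the lipid supply genes, ATG9B, a paralog of the transmembrane lipid scramblase ATG9A, was at 22.2, 16.6 and 23.1 FPKM in parental and 8.31, 5.90 and 8.14 FPKM in resistant libraries. The groups were well apart, and ATG9B fell by 1.46 on the log2 scale (SE 0.19, limma adjusted p = 0.00142). NOS3, which overlaps ATG9B on the opposite strand, was at 0.875 to 1.05 FPKM in parental and 82.2 to 100 FPKM in resistant libraries. The libraries were made with a strand-specific kit, but the strand setting of the counting is not given in the sources used here, so that reads of the 2 overlapping genes may not have been kept apart. ATG9A fell by 0.49 on the log2 scale, a call lost without parental library 2 or resistant library 0 or 1 (adjusted p up to 0.0617). The lipid transfer genes ATG2A and ATG2B had log2 fold changes of -0.32 and -0.31 and did not pass. The ATG9B share of the summed ATG9 level was 28.4% ± 6.04 in parental and 16.6% ± 2.22 in resistant libraries (SD, n = 3 each).

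Of the 7 genes of the conjugation system, 3 rose and none fell (42.9% called, beside 44.4% of all genes tested). ATG10, the enzyme of the E2 kind that joins ATG12 to ATG5, was at 6.37, 7.81 and 3.68 FPKM in parental and 17.6, 19.0 and 18.3 FPKM in resistant libraries. ATG12, the ubiquitin-like protein that it transfers, was at 16.8, 13.7 and 21.3 FPKM and at 36.9, 33.4 and 33.2 FPKM. ATG5, the acceptor of ATG12, was at 10.9, 11.1 and 8.71 FPKM and at 16.7, 13.2 and 17.2 FPKM. For these genes each resistant library was above each parental one. ATG10 rose by 1.67 on the log2 scale (SE 0.27, limma adjusted p = 0.00322), ATG12 by 1.02 (SE 0.17, limma adjusted p = 0.00343) and ATG5 by 0.61 (SE 0.16, limma adjusted p = 0.0206). The ATG5 call was lost without parental library 2 or resistant library 0 or 2, with adjusted p up to 0.0715. AP3S1, which overlaps ATG12 on the opposite strand, was at 11.8 to 18.8 and 38.0 to 43.3 FPKM, and RPS23, which overlaps ATG10 on the opposite strand, at 404 to 474 and 492 to 610 FPKM. As for ATG9B and NOS3, reads of these overlapping genes may not have been kept apart. ATG7, the E1 enzyme that activates both ATG12 and the ATG8 proteins, was at 29.0, 25.8 and 28.9 FPKM in parental and 21.9, 23.6 and 30.3 FPKM in resistant libraries. Its groups overlapped (log2 fold change -0.16, 95% confidence interval -0.49 to 0.18). ATG3, the E2 enzyme for ATG8 proteins, and ATG16L1 and ATG16L2, the partners of the ATG12-ATG5 conjugate, had log2 fold changes of -0.23, 0.37 and 0.10 and did not pass. Among the ATG4 proteases, which trim ATG8 proteins and release them from the membrane, ATG4D rose by 0.76 and ATG4A fell by 0.45 on the log2 scale, and ATG4B and ATG4C had values of 0.07 and 0.44. The ATG4D call was lost without parental library 0 or resistant library 0 or 1 (adjusted p up to 0.074) and the ATG4A call without parental library 0 or 2 or resistant library 1 or 2 (adjusted p up to 0.075).

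**Figure D2:**
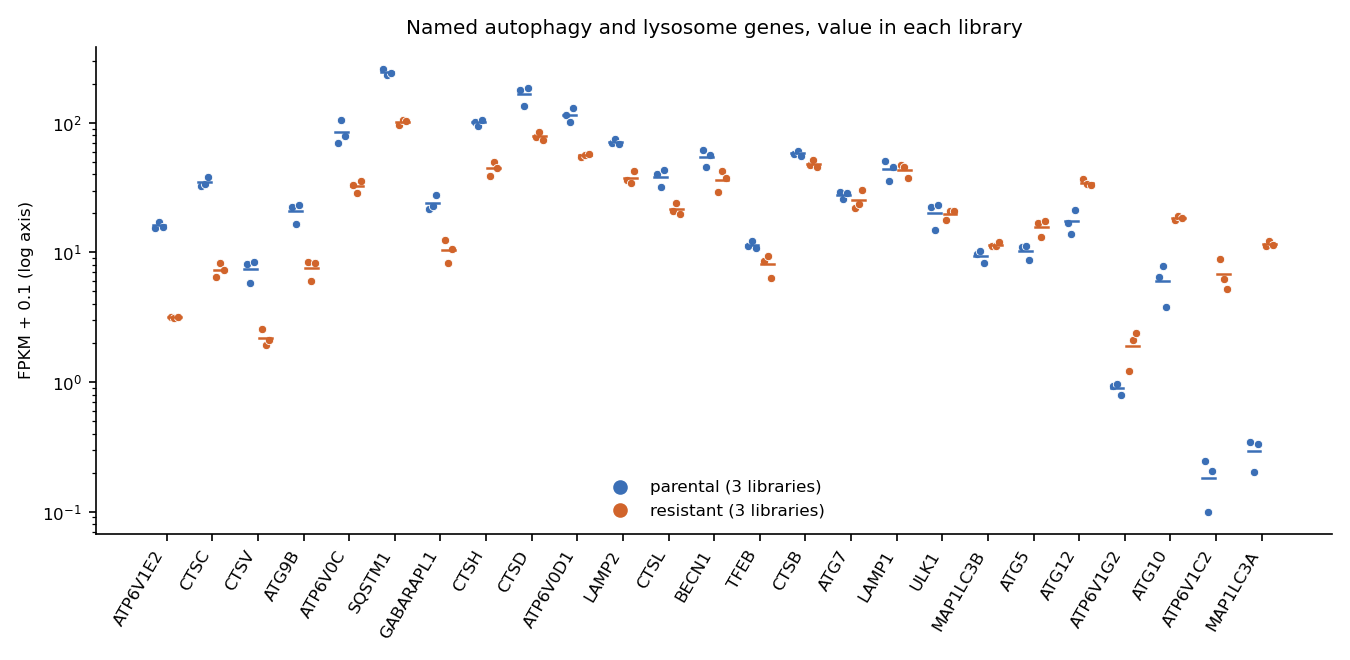
FPKM in each of the 6 libraries (points) and group means (short lines) for the 25 members named by rule, on a log axis with the pseudocount of 0.1 FPKM added. The resistant libraries of SQSTM1 sit between 95.7 and 106 FPKM, all below the parental ones, and MAP1LC3A and ATP6V1C2 are near the bottom of the axis in the parental libraries alone.

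The ATG8 proteins coat the autophagosome membrane and bind receptors. GABARAP was the most abundant, at 228 to 262 FPKM in parental and 239 to 261 FPKM in resistant libraries, with a log2 fold change of 0.02 (95% confidence interval -0.16 to 0.20). The rarer members differed. MAP1LC3A (chromosome 20, 34546854 to 34560345, GRCh38) was at 0.243, 0.101 and 0.231 FPKM in parental and 11.0, 12.2 and 11.3 FPKM in resistant libraries. It went from a level of a few reads to the level of MAP1LC3B, with a log2 fold change of 5.35 (SE 0.28, limma adjusted p = 4e-05), which became 3.39 when 1 FPKM was added to the values and 5.92 when 0.01 was added. MAP1LC3B, whose protein LC3B is the common marker of autophagosomes, was at 9.67, 10.2 and 8.18 FPKM and at 11.1, 11.0 and 11.9 FPKM. Its resistant libraries were all above its parental ones, but the log2 fold change of 0.28 (95% confidence interval -0.02 to 0.58) did not pass the test. MAP1LC3B2, a near-identical copy whose reads may be split with MAP1LC3B, was at 0 to 0.201 and 0.172 to 1.44 FPKM and did not pass. GABARAPL1 was at 21.4, 22.7 and 27.5 FPKM in parental and 12.4, 8.20 and 10.5 FPKM in resistant libraries. Without overlap between the groups, it fell by 1.21 on the log2 scale (SE 0.18, limma adjusted p = 0.00231), and GABARAPL2 fell by 0.41, a call lost without parental library 0 or resistant library 1 or 2 (adjusted p up to 0.0665). MAP1LC3C was listed at 0 in every library. The summed level of the family was 360 ± 25.5 FPKM in parental and 344 ± 6.90 FPKM in resistant libraries (SD, n = 3 each), and within that sum MAP1LC3A went from 0.0524% to 3.34% and GABARAPL1 from 6.63% to 3.02%.

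SQSTM1 (chromosome 5, 179806398 to 179838078, GRCh38) encodes p62, the receptor that carries ubiquitinated cargo to ATG8 proteins and is itself degraded with it. It was at 260, 236 and 243 FPKM in parental libraries, next to GABARAP the highest level among the members, and at 95.7, 106 and 103 FPKM in resistant libraries. The groups were far apart against a spread of 12.4 and 5.13 FPKM (SD), and SQSTM1 was 2.43-fold lower in resistant cells, which is a log2 fold change of -1.28 (SE 0.07, limma adjusted p = 4.6e-05). It remained between -1.31 and -1.24 with each library left out in turn. MGAT4B, which overlaps it on the opposite strand, was at 128 to 137 and 106 to 110 FPKM.

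In the vacuolar ATPase, 2 of 8 tested V0 genes rose and 4 fell, with a median log2 fold change of -0.55, and of 12 tested V1 genes 2 rose and 2 fell, with a median of 0.07. Over all genes tested 22.1% were higher and 22.3% lower, and the difference between the sectors was not tested. ATP6V0C, the main proteolipid of the rotating ring in the membrane, was at 69.3, 106 and 79.7 FPKM in parental and 32.9, 28.6 and 35.3 FPKM in resistant libraries. ATP6V0D1, the subunit that couples the ring to the central stalk, was at 114, 102 and 129 FPKM and at 54.7, 56.2 and 57.2 FPKM. In both genes each resistant library was below each parental one. ATP6V0C fell by 1.38 on the log2 scale (SE 0.17, limma adjusted p = 0.00103) and ATP6V0D1 by 1.03 (SE 0.10, limma adjusted p = 0.000334). A readthrough gene that shares the strand and locus of ATP6V0C was at 0 to 3.33 FPKM in parental and 5.48 to 8.94 FPKM in resistant libraries. The small e subunits ATP6V0E1 and ATP6V0E2 fell by 0.96 and 0.61 on the log2 scale. ATP6V0B, the other proteolipid of the ring, went against these, at 194, 163 and 187 FPKM in parental and 309, 311 and 288 FPKM in resistant libraries. With a log2 fold change of 0.74 (SE 0.08, limma adjusted p = 0.000711), it moved from the third to the first place in level among the members. ATP6V0A2, an isoform of the proton channel subunit a that is known from the Golgi and endosomes, rose by 0.77, while ATP6V0A1 had a log2 fold change of -0.49 (95% confidence interval -1.07 to 0.08) and did not pass. ATP6V0A4, known from kidney, was above 0 in 2 parental libraries and 1 resistant library and at most at 1.09 FPKM, and did not pass.

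Most V1 subunits did not pass the test. ATP6V1A and ATP6V1B2, which form the catalytic head, had log2 fold changes of -0.08 and 0.10, and ATP6V1C1, ATP6V1E1, ATP6V1F, ATP6V1G1 and ATP6V1H between -0.16 and 0.16, none past the threshold. ATP6V1B1, the kidney form of subunit B, was at 0 to 0.822 FPKM in parental and 0.703 to 2.31 FPKM in resistant libraries and did not pass. ATP6V1D, part of the central stalk, fell by 0.47. The larger changes were in alternative isoforms. ATP6V1C2 (chromosome 2, 10721100 to 10785110, GRCh38), an isoform of the subunit C that clamps the sectors together and is known from kidney and lung, was at 0.144, 0 and 0.104 FPKM in parental and 8.83, 6.17 and 5.11 FPKM in resistant libraries. It was near 0 in each parental library, so that it reached the filter through its resistant libraries, with a log2 fold change of 5.28 (SE 0.44, limma adjusted p = 0.00021), which became 2.80 when 1 FPKM was added to the values and 6.87 when 0.01 was added. PDIA6, which overlaps it on the opposite strand, was at 101 to 106 and 92.2 to 99.1 FPKM. ATP6V1E2 (chromosome 2, 46490750 to 46542577, GRCh38), an isoform of the stator subunit E known from testis, was at 15.3, 17.2 and 15.6 FPKM in parental and 3.05, 3.01 and 3.09 FPKM in resistant libraries. It was 5.26-fold lower, the farthest fall among the 63 tested members on the log2 scale (-2.35, SE 0.12, limma adjusted p = 3.2e-05). ATP6V1G2, a stator isoform known from brain, was at 0.834, 0.861 and 0.694 FPKM and at 1.11, 1.99 and 2.29 FPKM. Its groups did not overlap (log2 fold change 1.03, SE 0.34, limma adjusted p = 0.0484), but the call was lost without each parental library and without resistant library 1 or 2, with adjusted p up to 0.141.

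**Figure D3:**
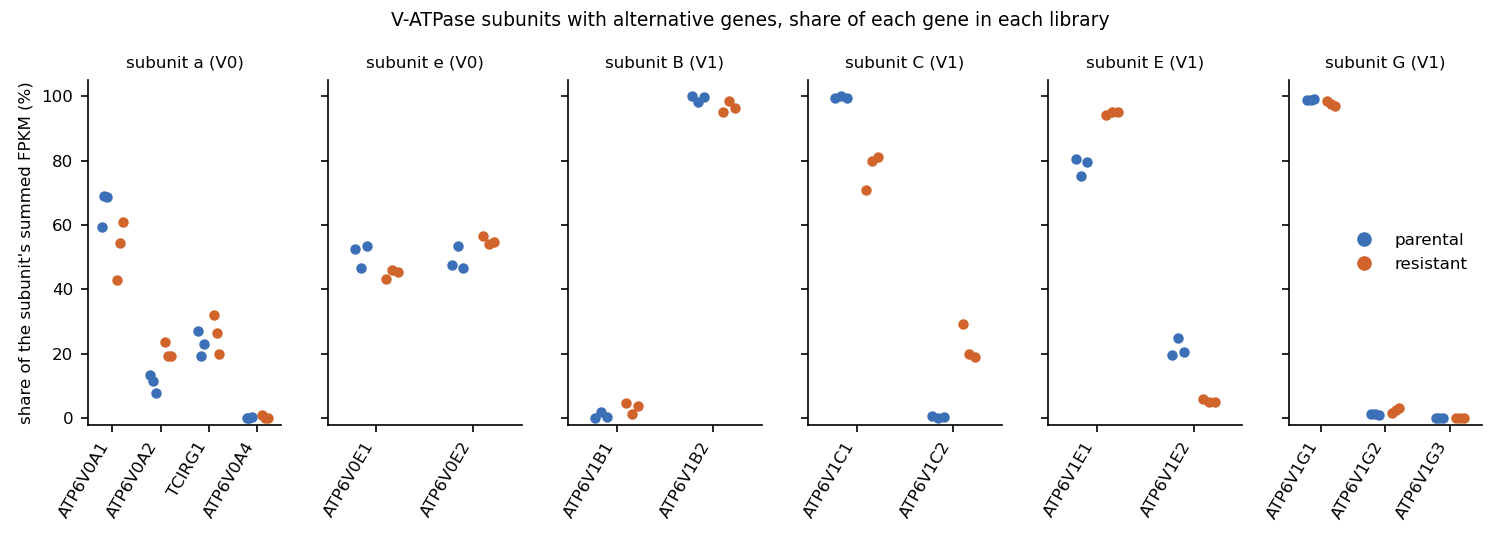
Share of each isoform in the summed FPKM of its vacuolar ATPase subunit, in percent, with a point for each of the 6 libraries, blue for parental and orange for resistant. The mean share of ATP6V1C2 goes from 0.359% to 22.7% of subunit C and that of ATP6V1E2 from 21.6% to 5.30% of subunit E, while ATP6V1G1 stays near 100% of subunit G.

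Within subunits that exist as isoforms, the shares of the summed FPKM describe this without a test. ATP6V1C2 made up 0.616%, 0% and 0.461% of subunit C in parental and 29.3%, 20.1% and 18.9% in resistant libraries, and the summed level of subunit C was 20.6 ± 4.23 and 29.3 ± 2.04 FPKM. ATP6V1E2 made up 19.5%, 24.8% and 20.4% of subunit E and then 5.89%, 5.08% and 4.93%, with a summed level of 74.7 ± 4.77 and 57.9 ± 5.52 FPKM. ATP6V0A2 went from 11.0% ± 2.79 to 20.8% ± 2.62 of subunit a, counted together with TCIRG1 (SD, n = 3 each). The pairs thus moved in opposite directions, with the tissue-restricted isoform gained in subunit C and lost in subunit E, while the ubiquitous ATP6V1C1 and ATP6V1E1 did not pass the test. In subunits B and G the ubiquitous isoform kept at least 95.1% of the level in every library. ATP6V0D2 and ATP6V1G3, known from kidney and osteoclasts and from kidney, were listed at 0 in every library.

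Among the cathepsins 2 of 11 tested genes rose and 6 fell, with a median log2 fold change of -0.82, and for 10 of the 11 the groups did not overlap, beside 54.8% of all genes tested. The share called was 72.7%, beside 44.4% of all genes tested and 58.1% of protein-coding genes averaging 10 FPKM or more, and the difference was not tested. The summed level of all 15 cathepsin genes was 510, 456 and 530 FPKM in parental and 301, 330 and 308 FPKM in resistant libraries. CTSD, the main aspartic protease of the lysosome, was at 180, 136 and 184 FPKM and at 78.2, 85.5 and 74.2 FPKM. CTSH, an aminopeptidase, was at 102, 94.3 and 106 FPKM and at 38.9, 49.9 and 44.7 FPKM. They made up 33.2% and 20.2% of the parental sum on average and were lower in each resistant library. CTSD fell by 1.06 on the log2 scale (SE 0.13, limma adjusted p = 0.00113) and CTSH by 1.18 (SE 0.11, limma adjusted p = 0.000304).

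CTSC (chromosome 11, 88265069 to 88359684, GRCh38), the dipeptidyl peptidase that activates granule proteases in immune cells, was at 32.6, 33.7 and 37.8 FPKM in parental and 6.33, 8.24 and 7.17 FPKM in resistant libraries. It was 4.79-fold lower, without overlap (log2 fold change -2.25, SE 0.13, limma adjusted p = 5.3e-05). CTSL, a broad endopeptidase, was at 40.4, 31.8 and 43.0 FPKM and at 20.9, 24.1 and 19.6 FPKM, and its close paralog CTSV at 7.99, 5.72 and 8.33 FPKM and at 2.46, 1.82 and 1.99 FPKM. Both fell in every resistant library, CTSL by 0.82 on the log2 scale (SE 0.14, limma adjusted p = 0.0044) and CTSV by 1.76 (SE 0.22, limma adjusted p = 0.00105). CTSB, the other abundant cysteine protease, was at 57.3, 60.8 and 55.8 FPKM and at 47.4, 51.7 and 45.9 FPKM. The difference was small, -0.26 on the log2 scale (SE 0.08, limma adjusted p = 0.0342), and its call was lost without each parental library and without resistant library 0 or 2, with adjusted p up to 0.0955. CTSA, a serine carboxypeptidase that also protects lysosomal glycosidases, and CTSF rose by 0.46 and 0.45 on the log2 scale. CTSZ, CTSK and CTSO did not pass, with log2 fold changes of -0.11, -0.98 and 0.69. As a share of the cathepsin sum, CTSA went from 5.50% to 12% and CTSF from 5.10% to 11.1%, while CTSD went from 33.2% to 25.3% and CTSC from 6.97% to 2.31%. The cathepsins typical of leukocytes were at or near 0, with CTSG at 0 in every library, CTSW at up to 0.057 FPKM and CTSS at up to 0.261 FPKM. CTSE was at 0.202 FPKM in a single resistant library and 0 in the others.

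LAMP1 and LAMP2 are the main glycoproteins of the lysosomal membrane, and LAMP2 is also the receptor of chaperone-mediated autophagy. LAMP1 was at 51.0, 35.3 and 45.7 FPKM in parental and 47.2, 45.7 and 37.7 FPKM in resistant libraries. Its groups overlapped (log2 fold change -0.01, 95% confidence interval -0.39 to 0.38), and the sign depended on the scaling. LAMP2 was at 70.2, 75.5 and 69.0 FPKM and at 36.2, 34.0 and 42.3 FPKM. It was lower in each resistant library and fell by 0.94 on the log2 scale (SE 0.10, limma adjusted p = 0.000587), so that the 2 paralogs differed in whether they passed the test, and the difference between them was not itself tested. LAMP3, a form known from dendritic cells, was at or below 0.584 FPKM in every library and did not pass.

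TFEB, the transcription factor that switches on lysosomal and autophagy genes when it enters the nucleus, was at 11.1, 12.2 and 10.8 FPKM in parental and 8.55, 9.21 and 6.29 FPKM in resistant libraries. Its resistant libraries were the lower ones, with a log2 fold change of -0.51 (SE 0.17, limma adjusted p = 0.0493). The call was lost without each parental library and without resistant library 0 or 2, with adjusted p up to 0.121. TFEB binds the E-box CACGTG. In RefSeq promoters of GRCh38.p14, from 250 bases before to 50 bases after a gene start, 54 of the 70 members were matched. The 6 letters CACGTG, which read the same on both strands, were in the window of 10 of them (18.5%), beside 2396 of 27305 genes with a promoter in the table (8.77%). Of these 10 genes 3 rose (ATP6V0B, CTSA and CTSF), 3 fell (ATP6V0E2, ATP6V0D1 and CTSD) and 4 did not pass (LAMP1, ATG3, ATP6V1G1 and ATG14), so that genes with the letters were found in both directions. Of all 54, 9 rose, 17 fell, 24 did not pass and 4 were not tested. A match is a run of letters and not a measured binding site.

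To show genes that rose, fell or did not pass beside the letters they share, the 200 bases just before the start of 6 genes are given 5′ to 3′ on the strand of the gene, with CACGTG in capitals. LAMP1 (chr13:113297039-113297238, plus strand) holds it 5 times and did not pass the test. CTSA (chr20:45891135-45891334, plus strand) and ATP6V0B (chr1:43974760-43974959, plus strand) hold it 2 times each and rose. ATP6V0D1 (chr16:67481158-67481357, minus strand) and CTSD (chr11:1763928-1764127, minus strand) hold it 1 time each and fell. CTSC (chr11:88337737-88337936, minus strand) is shown as the cathepsin with the farthest fall, and does not hold it.
LAMP1: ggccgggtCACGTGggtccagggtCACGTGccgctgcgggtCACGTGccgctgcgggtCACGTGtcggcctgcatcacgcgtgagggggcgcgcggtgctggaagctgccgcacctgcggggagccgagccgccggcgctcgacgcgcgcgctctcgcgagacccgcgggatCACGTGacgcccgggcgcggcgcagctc
CTSA: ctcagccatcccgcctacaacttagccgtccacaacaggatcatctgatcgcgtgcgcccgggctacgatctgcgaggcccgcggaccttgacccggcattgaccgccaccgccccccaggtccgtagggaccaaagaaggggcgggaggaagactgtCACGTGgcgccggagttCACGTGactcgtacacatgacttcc
ATP6V0B: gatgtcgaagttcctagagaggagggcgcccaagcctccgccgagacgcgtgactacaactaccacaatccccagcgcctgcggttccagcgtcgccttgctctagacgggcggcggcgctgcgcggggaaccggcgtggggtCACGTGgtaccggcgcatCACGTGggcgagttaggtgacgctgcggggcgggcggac
ATP6V0D1: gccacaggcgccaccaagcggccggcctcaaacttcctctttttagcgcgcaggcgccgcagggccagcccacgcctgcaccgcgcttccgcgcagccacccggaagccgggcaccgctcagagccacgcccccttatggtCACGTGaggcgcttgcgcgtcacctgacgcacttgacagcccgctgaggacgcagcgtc
CTSD: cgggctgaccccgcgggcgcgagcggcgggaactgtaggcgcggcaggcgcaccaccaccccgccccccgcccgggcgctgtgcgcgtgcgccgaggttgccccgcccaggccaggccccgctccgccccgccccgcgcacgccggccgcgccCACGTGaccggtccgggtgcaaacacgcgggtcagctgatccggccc
CTSC: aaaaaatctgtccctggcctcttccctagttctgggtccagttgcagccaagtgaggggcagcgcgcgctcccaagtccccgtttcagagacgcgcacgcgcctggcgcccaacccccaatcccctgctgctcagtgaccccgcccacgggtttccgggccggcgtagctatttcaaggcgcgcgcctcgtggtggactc

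Further genes of the same pathways lie outside the 70, and 137 of 138 such genes on 5 lists were tested. Of these 29 rose and 50 fell by limma, with a median log2 fold change of -0.29. The share called was 57.7%, beside 44.4% of all genes tested and 58.1% of protein-coding genes averaging 10 FPKM or more. The lists were not limited to that level and the difference was not tested, so that their counts are given as a description. Among 24 further genes of the autophagy machinery 3 rose and 7 fell (41.7% called). VAMP8, which drives fusion of autophagosomes with lysosomes, rose by 1.26 on the log2 scale, while VMP1, which shapes the forming membrane, fell by 1.03 and FYCO1, an adapter for transport along microtubules, fell by 1.36. Among 18 further receptors 3 rose and 8 fell (61.1% called). Of the receptors for mitochondria, FUNDC1 was at 0, 0.169 and 0 FPKM in parental and 8.39, 7.94 and 9.07 FPKM in resistant libraries and reached the filter through the resistant libraries, whereas BNIP3, a target of hypoxia signaling, went from 127 ± 4.46 to 24.6 ± 7.17 FPKM (SD, n = 3 each) and fell by 2.41 on the log2 scale. CCPG1, a receptor for the endoplasmic reticulum, fell by 1.31.

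Of 55 further lysosomal hydrolases and membrane proteins, 17 rose and 21 fell. The share called was 69.1%, beside 44.4% of all genes tested and 58.1% of protein-coding genes averaging 10 FPKM or more, and the difference was not tested. LAPTM4B, a membrane protein of late endosomes and lysosomes, rose by 1.97 on the log2 scale, while the acid ceramidase ASAH1 and the hexosaminidase subunit HEXA fell by 1.10 and 1.38. The summed level of this list was 2447 to 2631 FPKM in parental and 3056 to 3248 FPKM in resistant libraries, although the median log2 fold change of the list was -0.24. CD63 went from 361 ± 45.3 to 911 ± 40.8 FPKM and SMPD1 from 25.2 ± 8.68 to 214 ± 19.0 FPKM (SD, n = 3 each, both named after their values were seen), and these carry the higher sum. Of 10 assembly and accessory genes of the vacuolar ATPase 1 rose and 4 fell (50% called, beside the same 44.4%). The riser was CCDC115, by 0.84 on the log2 scale, and among the others VMA21 fell by 0.77 and DMXL1 by 1.03. Of 30 tested regulators of TFEB and of mTORC1, the kinase complex that holds TFEB in the cytosol, 5 rose and 10 fell (50% called). TFE3, the paralog of TFEB, went from 17.4 ± 1.28 to 5.55 ± 0.77 FPKM (SD, n = 3 each) and fell by 1.64 on the log2 scale, whereas RRAGD and LAMTOR4, which anchor mTORC1 to the lysosome, rose by 2.44 and 1.33. Of the other genes of this anchor, LAMTOR1 fell by 0.80 and RRAGA by 0.48, while LAMTOR5 rose by 0.68 (named after their values were seen). The LAMTOR5 call was lost without resistant library 0 or 2 (limma adjusted p up to 0.0509).

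**Figure D4:**
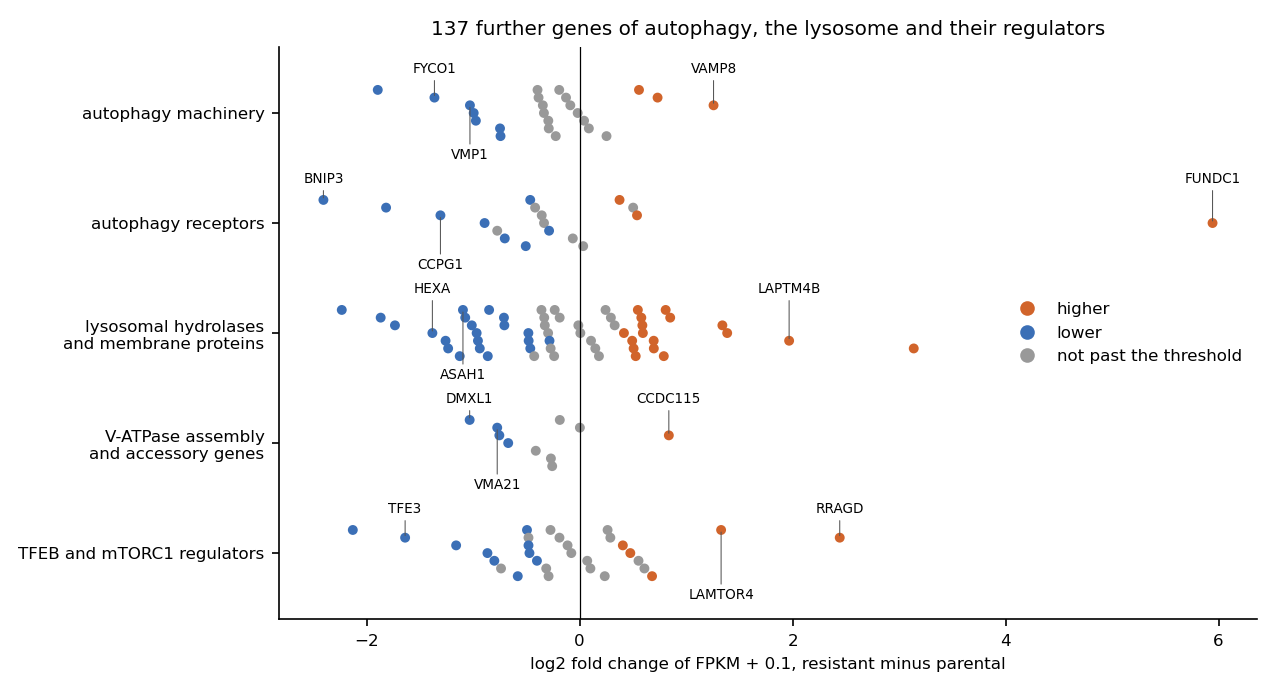
Log2 fold change of FPKM + 0.1, resistant minus parental, of the 137 tested genes on the 5 further lists, each point a gene colored by its call, with the 3 genes of smallest adjusted p of each list labeled. FUNDC1 (5.94), RRAGD (2.44) and LAPTM4B (1.97) lie to the right, and BNIP3 (-2.41) and TFE3 (-1.64) to the left. FUNDC1 reached the filter only through its resistant libraries.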

How the data were processed

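RNA-Seq of 3 C4-2B parental and 3 C4-2B enzalutamide resistant libraries was analysed. The authors deposited one table of FPKM values per gene and library. Its header names no unit, which was taken from the methods and the fractional values. The methods name TrimGalore 0.4.3, STAR 2.5.3 to GRCh38, GENCODE 25 and Cufflinks 2.2.1 on single-end reads of 50 bases. The submitters' processing notes name Trimmomatic 0.27, FastQC 0.10.1 and mm10 instead, while the gene identifiers and loci of the table are human. Gene positions and types came from GENCODE 44 on GRCh38, where 70 of 70 members matched. Read counts were not used here, so depth was estimated from the smallest values of genes with a single transcript (fragments of 200 bases assumed), and no counting interval is given. The authors' scaling between libraries is not given in the sources used here.

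The contrast of resistant minus parental was fitted by limma 3.58.1 (R 4.3.3) on log2(FPKM + 0.1) with a mean-variance trend and tested on both sides. Genes averaging 0.1 FPKM or more entered, and p-values were adjusted by Benjamini-Hochberg, with a threshold of 0.05. Fold changes on this scale understate the change of low genes. An exact permutation test of 3 against 3 libraries cannot go below p = 0.1, so none was used. The fit was tested on simulated data. Replicate numbers did not pair the libraries. Tables were handled with Python 3.11.15 and pandas 2.3.3.

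The members, roles and lists were chosen with earlier results of these data known. Named with every library were members past the threshold at 2-fold or more and 1 FPKM or more, and 13 genes whatever their values. Each further list is represented by its 3 genes of lowest adjusted p averaging 1 FPKM or more. Other members are given as examples of their role. Cell type lists were luminal, basal, leukocyte, fibroblast and neuroendocrine. Some genes of these and the further lists are not reported here by name. One listing of CLN3 at 0 in every library was dropped. Alternatives covered the pseudocount, filter, scaling, short RNA genes, variance trend, replicate block and each library left out.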

Additional observations from a re-analysis of the deposited data

How the results depend on the processing

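Of the 11 members called higher and the 21 called lower, 8 and 15 kept their call under every alternative of pseudocount, filter, scaling, variance trend, replicate block and left-out library. The others were ATG5, ATG4D, ATP6V1G2, GABARAPL2, ATG4A, ATG9A, BECN1, CTSB and TFEB, and the libraries that each depended on are given above. The ATP6V1G2 call was also lost with both pseudocounts, with a filter at 1 FPKM, with no filter and with quantile normalization. That of ATG4A was also lost with median scaling, and those of GABARAPL2, ATG9A, BECN1 and CTSB without the variance trend. At a change of at least 2-fold 5 of 63 members were higher and 10 lower, and 8 and 20 of 137 further genes. Of all genes tested, 15.0% and 13.6% were higher and lower at that change. With each library left out, 9 to 12 members were higher and 16 to 19 lower, and 22 to 30 and 42 to 50 of the further genes. Over the 24121 to 24477 genes tested with a library left out, 4477 to 4990 were higher and 4558 to 5200 lower. Members lower in resistant cells outnumbered those higher in each of these settings. In the main fit, lower calls also outnumbered higher ones among protein-coding genes averaging 10 FPKM or more (32.2% and 25.9%). The median log2 fold change of the members was -0.08 and turned to 0.037 with quantile normalization. It was -0.0028 with median scaling, -0.020 with short non-coding RNA genes left out and between -0.156 and -0.026 when one library was dropped, so that its sign is not settled. LAMP1 turned to 0.099, 0.068 and 0.051 under these 3 scalings and lay between -0.16 and 0.11 when one library was dropped, and ULK1 between -0.20 and 0.12. CTSB lost its call under the same 3 scalings (adjusted p = 0.186, 0.126 and 0.0913), and TFEB under these, both pseudocounts, no filter and no trend (adjusted p = 0.0507 to 0.0997). The cause of these changes was not tested.

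The replicate numbers did not pair the libraries, since the deviations of same-numbered libraries correlated at 0.00802, 0.0165 and -0.00301. With a replicate block, 9 members were higher and 19 lower, and 29 and 48 of the further genes, beside 4670 and 4793 of 24468 genes tested. In that fit ATG5, ATG4D, ATP6V1G2, BECN1, CTSB and TFEB were not past the threshold, while 1 other member was gained in each direction. Depth limits the values of MAP1LC3A, ATP6V1C2 and FUNDC1 in parental cells, which rest on few reads, and no interval could be given for them without counts.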

Other observations

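Beyond the genes named by the rule, the lysosomal genes of lipid turnover were seen to differ in both directions, and these were chosen after their values were seen. SMPD1, the acid sphingomyelinase that makes ceramide, had a log2 fold change of 3.14 (SE 0.26). ASAH1, the acid ceramidase that breaks ceramide down, was at 144 ± 0.77 and 67.4 ± 1.66 FPKM. GM2A, the activator of ganglioside breakdown, fell by 1.87 on the log2 scale. NPC1, which exports cholesterol from the lysosome, was at 49.8 ± 9.53 and 10.4 ± 0.96 FPKM and fell by 2.23, whereas its partner NPC2 rose by 0.59 (SD, n = 3 each). All 5 kept their call by limma with Benjamini-Hochberg adjustment under every alternative. In the main fit the limma adjusted p was 3.8e-05 for ASAH1 and from 0.000135 to 0.00505 for the others. Across the alternatives it was highest for NPC2, at up to 0.0226. WIPI1, which binds the marked lipid of the forming membrane, was at 12.9 ± 3.49 and 3.33 ± 0.43 FPKM and fell by 1.90, and FLCN, a regulator of the RRAG proteins, fell by 1.16.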
